A study of Canis lupus familiaris with 2 samples.

Results

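The miR-183/miR-96/miR-182 cluster comprises the miRNAs named cfa-miR-183, cfa-miR-96 and cfa-miR-182 on the array, 3 of the 291 dog miRNA probes on each array, chosen by name. The species prefix is left out from here on. Each had 1 probe and 1 spot per array, and each was matched to the authors' value table by its mature miRNA identifier (MIMAT0006621, MIMAT0009861 and MIMAT0009841). SNP cells, tumour cells of the canine mammary gland, were profiled for miRNAs in spheroid and in monolayer culture. The spheroid sample came from cells that floated in the growth medium, were selected and were grown without basement membrane components or matrix-like material, and the monolayer sample came from adherent cells kept in RPMI-1640 with serum. Selection of floating cells and growth as spheroids therefore cannot be told apart. Total RNA was taken once from each culture (RNA integrity 9.7 in the spheroids and 9.8 in the monolayer), labelled with Cy5 and put on 1 array. With 1 array per culture no difference had a replicate check, no test between cultures was possible and no p-value is given.

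In mammals the 3 miRNAs are cut from 1 shared primary transcript, so a change in its transcription would reach all of them, while processing and stability of each mature miRNA can still differ. The cluster is known for its high level in sensory cells of the inner ear and retina, and in human it is often raised in carcinomas, breast cancer among them. Their mature sequences resemble one another, and the seeds of miR-96 and miR-182, the stretch that pairs with target mRNAs, are closely alike without being identical. In human breast cancer cells miR-96 and miR-182 repress the mRNA of the transcription factor FOXO1, and miR-183 represses that of ezrin, a protein linking the membrane to actin, in human lung cancer cells. In the RefSeq gene table of dog assembly UU_Cfam_GSD_1.0 the genes MIR183, MIR96 and MIR182 stood next to one another on 1 chromosome, in that order, between the protein-coding genes UBE2H and NRF1, and the interval of the long non-coding RNA gene LOC102151305 covered all 3. The genome build behind the array is not given in the sources used here, so no coordinates are reported.

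A miRNA was called detected when its raw spot intensity, the median pixel value in scanner units, exceeded the mean plus 2 SD of the array's spots named blank. That limit was 79.8 on the spheroid array and 89.8 on the monolayer array. Above it lay 201 of the 291 miRNAs (69.1%) in the spheroids and 180 (61.9%) in the monolayer, with 178 detected on both arrays, which is 61.2% of the 291. All 3 cluster members were among these 178. The epithelial identity of the cells was checked on 6 marker miRNAs, the miR-200 family and miR-205, and all 6 were detected on both arrays, 4 of them also above the limit of 5 blank SDs. Their deposited values ran from 5.42 (miR-200a) to 611 (miR-141) intensity units in the spheroids and from 4.57 (miR-200a) to 330.2 (miR-141) in the monolayer. miR-200a and also miR-200b (7.84 and 4.70) were thus as dim as markers of other cells. miR-205 had 170 in the monolayer but 27.6 in the spheroids, below miR-199 and miR-9, markers of other cells given below. The identity therefore rests on miR-141, miR-200c and miR-429, with miR-205 in the monolayer only. Markers of blood cells (2 of 5 detected, with deposited values of at most 4.05 in the spheroids and 5.46 in the monolayer) and the endothelial miR-126 (not above the limit on either array) were dim or undetected. Of the fibroblast and smooth muscle markers miR-143 and miR-145 were detected on neither array, while miR-199 had deposited values of 41.1 in the spheroids and 58.3 in the monolayer and miR-214 had 10.02 and 15.0. Summed deposited values of the fibroblast and smooth muscle list were 51.1 in the spheroids and 73.3 in the monolayer, and those of the striated muscle list, led by no value above 10.1, were 22.0 and 35.1. The neural list was higher in the spheroids, at 69.8 against 27.5 in the monolayer, through miR-9 (54.8 and 18.7) and miR-128 (15.1 and 8.84), while miR-124 and both miR-219 probes were detected on neither array. The part of other cells in the values below was not tested.

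miR-96, whose seed mutations cause hearing loss in human and mouse, had the brightest of the 3 spots, with a raw intensity of 294 in the spheroids and 203 in the monolayer. It ranked 48th of 291 on the spheroid array and 57th on the monolayer array. miR-182, abundant in retina, followed with 287 in the spheroids and 193 in the monolayer, at ranks 50 and 59. miR-183 was dim on both arrays, with 93.3 in the spheroids and 92.1 in the monolayer, at ranks 136 and 163. The spots of miR-96 and miR-182 were thus brighter in the spheroids by 91.0 and 93.6 intensity units, whereas the miR-183 spot was brighter by 1.28 units. In RNA from whole cultures, fewer cells that express a miRNA and less of it per cell cannot be told apart. The order of brightness was the same on both arrays, but it is an order of spots: the sensitivity of each probe is unknown, so it does not rank the miRNAs by abundance.

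**Figure D1:**
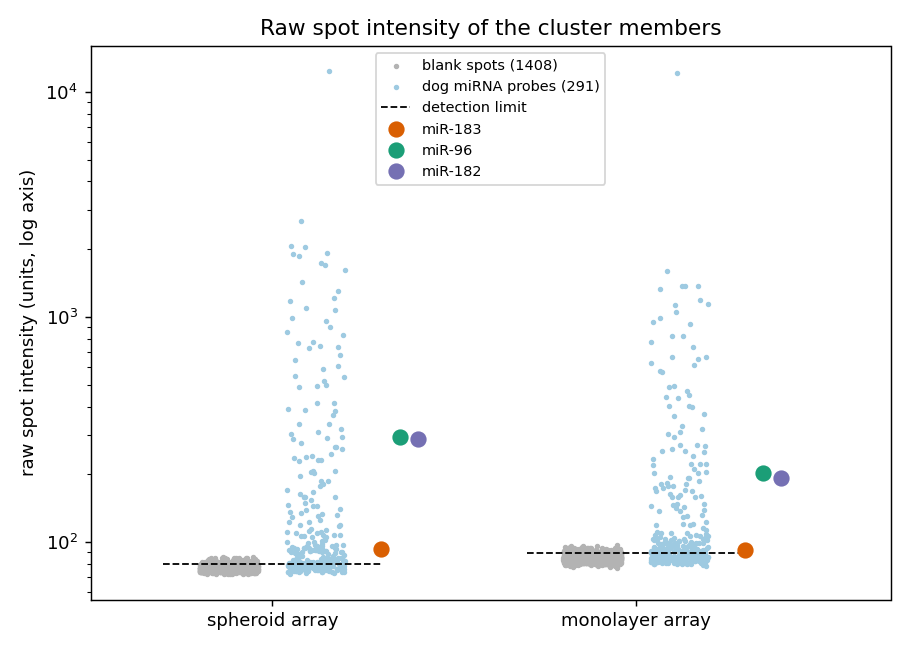
Raw spot intensity (scanner units, log axis) on the spheroid array (left) and the monolayer array (right), with the 1408 blank spots in grey, the 291 dog miRNA probes in light blue, the detection limit as a dashed line and the 3 cluster members as large points. miR-96 and miR-182 stood together well above the limit on both arrays, at 294 and 287 in the spheroids and 203 and 193 in the monolayer, and miR-183 stood just above it at 93.3 and 92.1.

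Blank spots themselves differed between the arrays, with a mean of 76.7 in the spheroids and 85.1 in the monolayer. miR-96 exceeded these means by 217 units in the spheroids and 118 in the monolayer, a ratio of 1.84. miR-182 exceeded them by 210.1 units in the spheroids and 108 in the monolayer, a ratio of 1.94. Both lay 45.7 or more blank SDs above the blank mean on each array, and so were far from the spread of the blanks. As a share of the signal above the blank mean of all detected miRNAs, miR-96 held 0.373% in the spheroids and 0.273% in the monolayer, miR-182 held 0.361% and 0.250%, and miR-183 held 0.0285% and 0.0161%.

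The measurement of miR-183 was much less secure. Its spot lay 10.7 blank SDs above the blank mean in the spheroids but only 2.95 in the monolayer, where its intensity was 1.02 times the detection limit. No blank spot of the 1408 was brighter than the miR-183 spot on the spheroid array, against 38 (2.70%) on the monolayer array. With a limit of 5 blank SDs above the mean, 84.5 in the spheroids and 96.9 in the monolayer, miR-183 remained detected in the spheroids and was no longer detected in the monolayer. At that limit 2 of the 3 members were detected on both arrays, beside 43.6% of all 291 miRNAs.

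The blank spots printed around miR-183 gave a different picture of its background. The array is divided into 32 blocks with 44 blanks each around these probes, and the mean of a block's blanks ranged from 75.2 to 79.6 in the spheroids and from 81.8 to 88.6 in the monolayer. In block 26, which holds miR-183, it was 77.8 in the spheroids and 82.5 in the monolayer, so the local background was above the whole-array mean on the spheroid array and below it on the monolayer array. The miR-183 spot exceeded its block's blanks by 15.5 units in the spheroids and 9.61 in the monolayer, a ratio of 1.61, where the blanks of the whole array gave 16.6 and 6.97 units and a ratio of 2.38. No blank of that block was brighter than the miR-183 spot on either array, the brightest reaching 84.7 in the spheroids and 85.7 in the monolayer. miR-96 and miR-182 both lie in block 2, and its blanks changed their ratios only to 1.88 and 1.99. Block blanks were considered after the data had been seen.

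**Figure D2:**
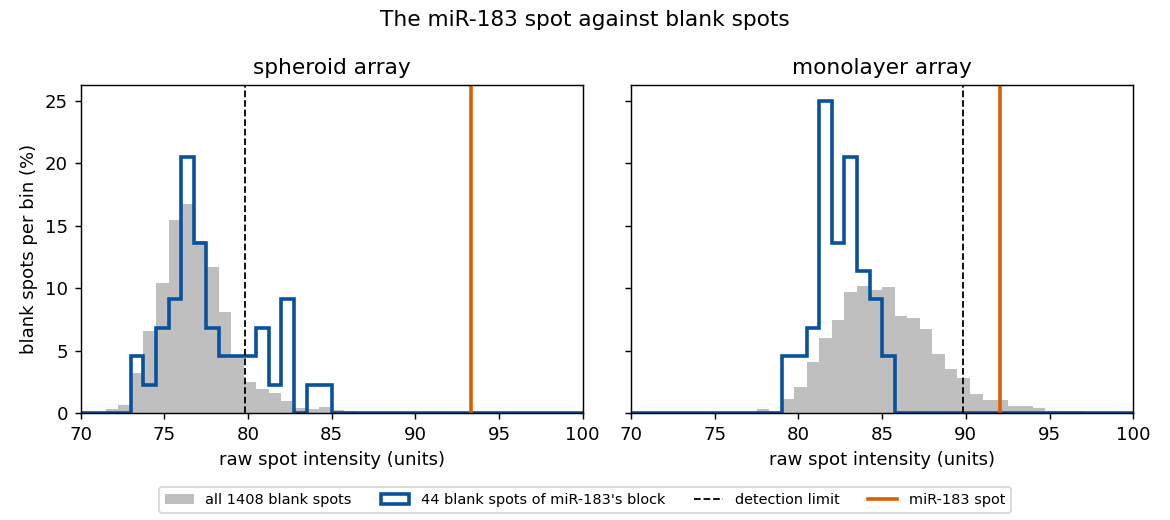
Raw intensity (scanner units) of the miR-183 spot (orange line) on the spheroid array (left) and the monolayer array (right), with all 1408 blank spots as a grey histogram and the 44 blank spots of its own block as a blue outline, in percent of spots per bin, and the detection limit as a dashed line. On both arrays the spot was brighter than every blank of its block, while on the monolayer array 38 blanks elsewhere were brighter.

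For the comparison of the cultures, which addressed how miRNA levels differ between spheroid and adherent cells, intensities were background corrected with an offset, put on a log2 scale and quantile normalized across all 291 miRNAs, and a log2 difference is spheroid minus monolayer. On that scale miR-96 had a level of 7.91 in the spheroids and 7.61 in the monolayer, a log2 difference of 0.31 or 1.24-fold. miR-182 had 7.83 in the spheroids and 7.54 in the monolayer, a log2 difference of 0.29 or 1.22-fold. miR-183 had 6.13 in the spheroids and 6.01 in the monolayer, a log2 difference of 0.13 or 1.09-fold. All 3 members were higher in the spheroid array, as were 44.9% of the 178 miRNAs detected on both arrays, but miR-183 was lower, at -0.23, with scaling to the 75th percentile of the detected miRNAs. The median of the 3 was 0.29, beside a median of -0.05 over the 178. Of the marker lists of other cells, both detected neural members were higher too, with a median of 0.46 (miR-9 at 0.75 and miR-128 at 0.17). The detected members of the fibroblast and smooth muscle list (0 higher, 2 lower, median -0.26), of the striated muscle list (1 higher, 4 lower, median -0.19) and of the blood cell list (0 higher, 2 lower, median -0.05) were mostly lower, although over the 13 settings the medians ran from -0.63 to 0.07, -1.16 to -0.14 and -0.45 to 0.22 in the same order, and the neural median from 0.20 to 1.77.

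Repeated spots of 6 control probes, 8 spots each, gave an SD of 0.065 for a log2 difference. This SD covers the error of a spot and leaves out all variation between cultures, RNA extractions and arrays. It was taken before quantile normalization, whereas the differences of the members set against it were taken after. The differences of miR-96 and miR-182 were 4.71 and 4.44 such SDs and that of miR-183 was 1.93, so miR-183 did not exceed 2 SDs pooled over the 6 controls. The dimmest of these controls alone gave an SD of 0.039. Without scaling between arrays, as for the controls, the differences were 0.63 for miR-96, 0.68 for miR-182 and 0.15 for miR-183. The median over the 178 was then 0.09. Whether miR-183 exceeded 2 spot SDs therefore depended on the control used and on the normalization. Of the 178 miRNAs, 32.6% were higher in the spheroids by more than 2 pooled SDs, a share that shows how common differences of that size were on these arrays. None of the 3 reached 2-fold, which 5.06% of the 178 did in either direction and 2.25% did upwards. Among the 178, 34 miRNAs had a larger difference than miR-96, 37 a larger one than miR-182 and 59 a larger one than miR-183.

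In the authors' deposited values, which are blank-subtracted, scaled and on a linear scale, the same members stood further apart between cultures. miR-96 had 108 intensity units in the spheroids and 72.0 in the monolayer (1.50-fold), and miR-182 had 105 and 66.0 (1.58-fold). miR-183 had 8.27 in the spheroids and 4.26 in the monolayer (1.94-fold), the largest ratio of the 3, where the background-corrected values gave it the smallest. The smallest deposited values on the arrays were 1.60 in the spheroids and 3.06 in the monolayer, so the monolayer value of miR-183 lay close to that floor. With the blanks of its own block subtracted and the authors' scale factors kept, the ratio of miR-183 was 1.31, below the 1.53 of miR-96 and the 1.62 of miR-182 by the same measure. In the deposited values 50.6% of the 178 miRNAs were higher in the spheroids, and 12.9% by 2-fold or more, none of them a cluster member.

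**Figure D3:**
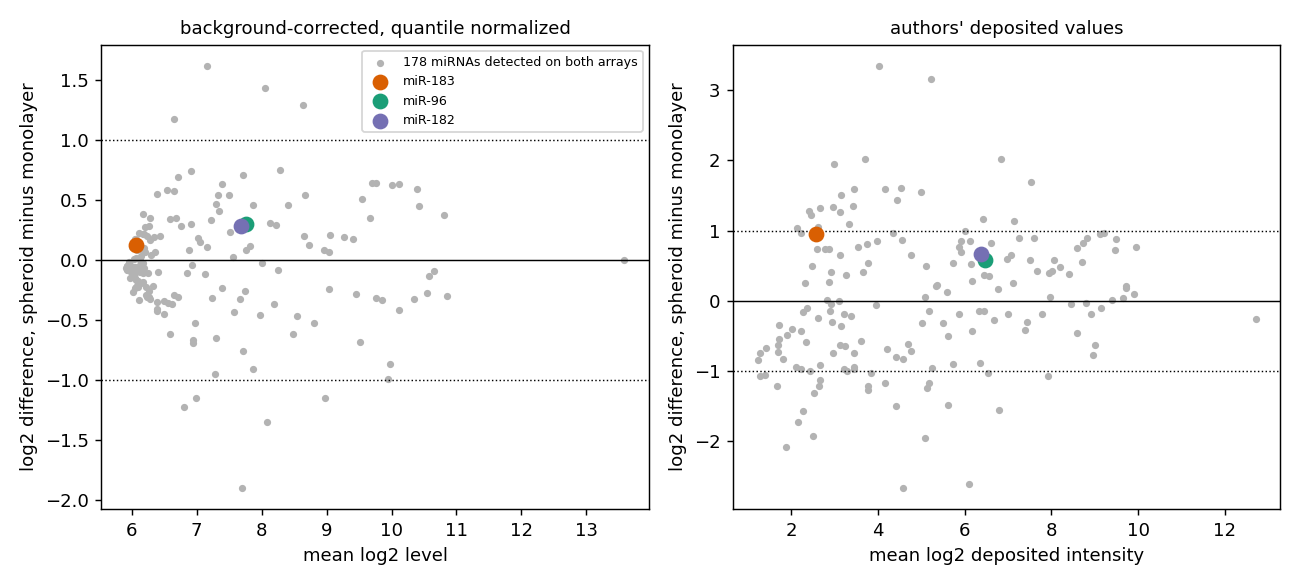
Log2 difference between cultures (spheroid minus monolayer) against the mean log2 level of the 178 miRNAs detected on both arrays, in the background-corrected and quantile-normalized values (left) and the authors' deposited values (right), with the cluster members as large points and dotted lines at 2-fold. miR-96 and miR-182 lay beside each other in both, at 0.31 and 0.29 on the left and 0.59 and 0.66 on the right, while the dim miR-183 lay below them on the left (0.13) and above them on the right (0.96).

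In the 13 settings, none subtracting the intensities headed as background, the levels of miR-96 and miR-182 kept their proportion across cultures within spot error. Their log2 differences were 0.02 apart in the background-corrected values and -0.08 apart in the deposited values (miR-96 minus miR-182), where the controls gave an SD of 0.092 for such a gap between 2 members, or 0.104 with the blank mean subtracted as in the deposited values. Over all 13 ways of treating background and scaling, the gap ran from -0.08 to 0.02. A factor applied to a whole array leaves such a gap as it is. Whether the probes of the cluster members, whose sequences resemble one another, read some shared signal was not tested, and this includes the dim miR-183. The spots of miR-96 and miR-182 were also printed in the same block. The intensities headed as background in the scanner tables were 0.611 of the spot itself for miR-96 in the spheroids and 0.619 in the monolayer, against 0.708 and 0.800 for miR-182, so the 2 spots were not alike in that respect. No setting subtracted these intensities. Subtracting them would raise the difference of miR-182 relative to that of miR-96, since the share for miR-182 was lower in the spheroids. For miR-96 these intensities were 180 in the spheroids and 126 in the monolayer, under raw spots of 294 and 203. For miR-182 they were 203 and 154, under raw spots of 287 and 193. Above them, the ratio of spheroids to monolayer was clearly larger for miR-182 than for miR-96. The spot error of such values was not measured. The proportion is therefore stated only for settings that left these intensities in.

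Whether miR-183 differed between cultures by as much as the other members was not resolved at this signal. Its gap to miR-182 (miR-182 minus miR-183) was 0.16 in the background-corrected values and -0.29 in the deposited values, and ran from -0.47 with the mean of all blanks subtracted to 0.53 with median scaling. miR-183 had the smallest difference of the 3 in 10 of the 13 settings and the largest in the other 3. Settings that only shift every miRNA by 1 constant share the same gaps, so these counts depend on which settings were listed. No setting subtracted the intensities headed as background, 74.8 in the spheroids and 69.5 in the monolayer for miR-183. Over these, its raw spot stood out by more in the monolayer than in the spheroids. The dimmest control lay 9.58 units above the blank mean in the spheroids and 13.2 in the monolayer, where miR-183 lay 16.6 and 6.97 above it. This control had an SD of 0.245 between its spots after blank subtraction, which makes the SD of a blank-subtracted gap 0.256. It was brighter than miR-183 on the monolayer array, so the error of miR-183 there was not matched.

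The height of the members above 0 depended on how background and scaling were treated, while their place relative to the other miRNAs did so less. Over the 13 settings the log2 difference of miR-96 ran from 0.26 to 1.20 and that of miR-182 from 0.26 to 1.27, above 0 in each. miR-183 ran from -0.23, with the arrays scaled to the 75th percentile of the miRNAs detected on both, to 1.57 with the blank mean subtracted and the arrays scaled to the spike controls, and was above 0 in 12 of the 13 settings. The highest value of each member came from that setting, in which all 3 were 2-fold or more higher, as were 38.8% of the 178 miRNAs, whose median was then 0.61. It changes background and scaling together, and when only the background was changed, by subtracting the blank mean, miR-183 was at 0.87, no member was 2-fold apart and 20 of the 178 miRNAs were 2-fold or more higher. Taken relative to the median of the 178 in the same setting, miR-96 was higher by 0.31 to 0.59, miR-182 by 0.29 to 0.66 and miR-183 by 0.06 to 1.05, and all 3 were above that median in all 13. These settings are not independent of one another, since several shift every miRNA by 1 constant.

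**Figure D4:**
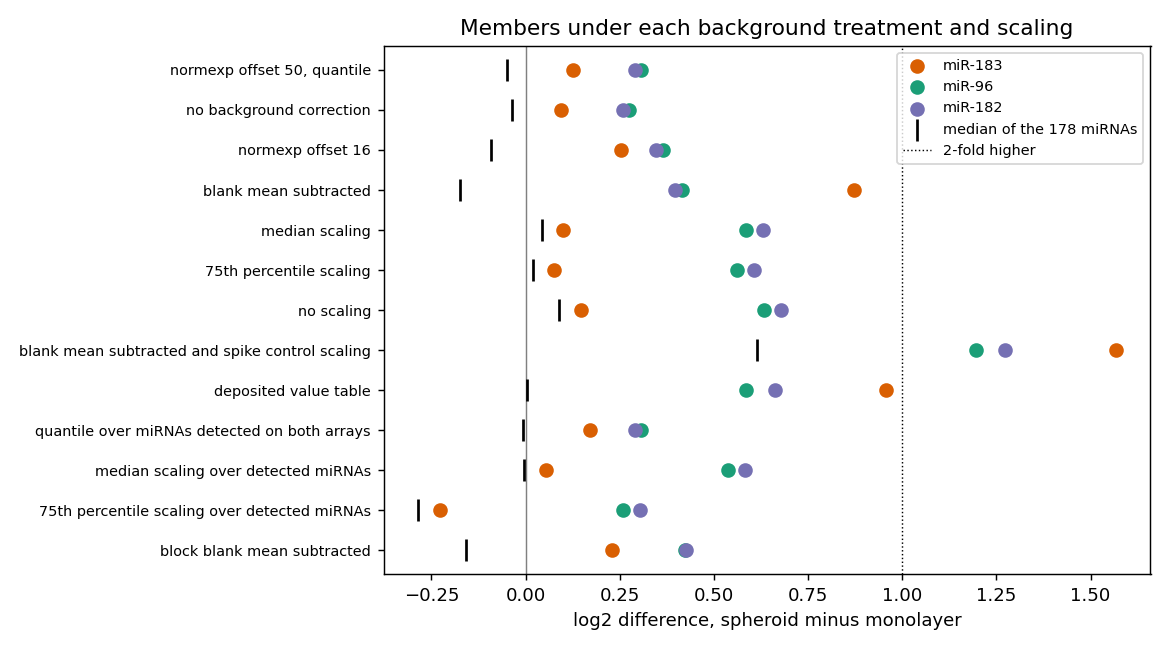
Log2 difference between cultures (spheroid minus monolayer) of the 3 members under each of 13 background treatments and scalings, with a black mark at the median of the 178 miRNAs detected on both arrays and a dotted line at 2-fold. miR-96 and miR-182 stayed within 0.08 of each other throughout, and miR-183 ranged from -0.23 to 1.57 but lay to the right of the black mark in each.

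The cluster was set beside the other groups of neighbouring miRNA genes, as a description of how far members of 1 group spread. In the RefSeq table there were 13 groups with 3 or more array miRNAs, each within 10 kb of the next, strand not considered, and 10 of them had at least 3 members detected on both arrays. Some groups share a spot: miR-24 counts in the groups of miR-23a and miR-23b, and miR-19b and miR-92a in those of miR-17 and miR-106a. All detected members of these sharing groups were lower in the spheroids in the background-corrected values. Within the miR-183/miR-96/miR-182 cluster the log2 differences spanned 0.18. The spans of the other 9 groups ran from 0.08, for miR-106b, miR-93 and miR-25, to 1.30, for the large imprinted group from miR-379 to miR-410, and 2 of them were narrower than that of the cluster. In the deposited values the cluster spanned 0.37 and 3 groups were narrower, and over the 13 settings its span ran from 0.11 to 0.53, with 1 to 5 groups narrower. All detected members had the same direction in 9 of the 10 groups, upwards in 4 of them, the cluster included, but both counts depended on the setting. The 9 fell to 5 under 4 of the scalings, and groups with all members higher numbered 1 to 8 over the 13 settings, with 6 higher and 2 lower in the deposited values and 8 higher and 1 lower with the blank mean subtracted and the spike controls. Groups differ in size and brightness, and dim members are drawn towards 0 by the offset, so the spans do not rank the groups by how closely their genes are regulated.

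**Figure D5:**
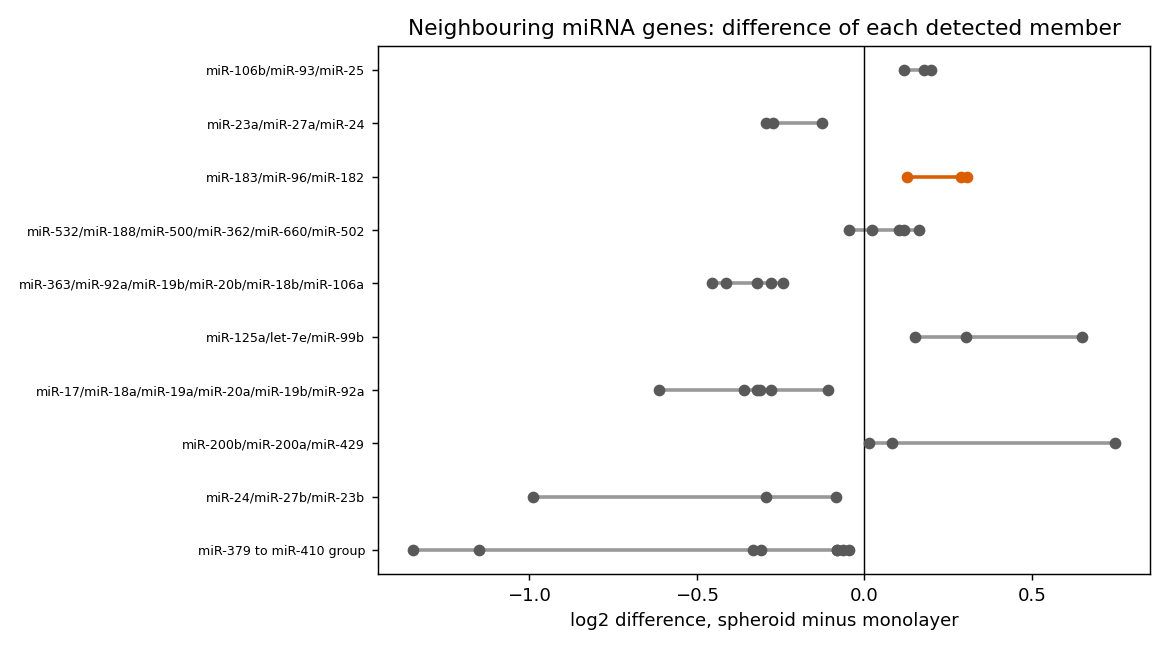
Log2 difference between cultures (spheroid minus monolayer, background-corrected and quantile-normalized values) of each detected member of the 10 groups of neighbouring miRNA genes with at least 3 detected members, ordered by span, with the miR-183/miR-96/miR-182 cluster in orange. Its members lay between 0.13 and 0.31, all above 0 in these values, whereas miR-183 was at -0.23 with scaling to the 75th percentile of the detected miRNAs.

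The epithelial miR-200b/miR-200a/miR-429 group resembled the cluster in having dim members beside a bright one. miR-429 had a log2 difference of 0.75, while miR-200b, with raw intensities of 92.5 in the spheroids and 92.8 in the monolayer, had 0.08 and miR-200a had 0.01. Of the 6 epithelial markers 5 were higher in the spheroid array (3 to 5 over the 13 settings, the dim miR-200a and miR-200b changing sign) and miR-205 was lower, with a log2 difference of -1.90, for a median of 0.30. The cluster's median of 0.29 was close to it, and whether the 2 lists differ was not tested.

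The miRNAs most like each member, by distance in the plane of their log2 levels on the 2 arrays, were the other bright member and miR-186 for both miR-96 and miR-182. miR-96 and miR-182 were 0.10 apart and miR-186, with a level of 7.80 in the spheroids and 7.71 in the monolayer, was 0.16 from miR-96 and 0.17 from miR-182. For miR-183 they were miR-502, with a log2 difference of 0.16, and miR-200b, with levels of 6.12 in the spheroids and 6.04 in the monolayer, both 0.03 away. Likeness over 2 arrays is weak, most of all among dim miRNAs, which crowd together on this scale.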

How the data were processed

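The authors' deposited scanner tables give a median pixel intensity per spot at 635 nm, read at 3 gains, per the file headers, without background correction or scaling between arrays. The authors' deposited value table holds normalized intensities on a linear scale. Set against the scanner tables, each value equalled the spot minus the mean of the blank spots, after leaving out 5% of them at each end (1268 remained), times 0.498 for the spheroids and 0.611 for the monolayer, within 0.03%. Neither scanner nor software is given in the sources used here.

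Main values were made with limma 3.58.1 in R 4.3.3: normexp on all spots with an offset of 50, log2, then quantile normalization over the 291 dog miRNAs. The offset draws dim miRNAs towards 0. The steps were tested on simulated data with known differences in bright miRNAs only, so none as dim as miR-183 was covered. The main values could pass with only part of each known difference recovered. Python 3.11.15 with numpy 2.4.6, pandas 2.3.3 and matplotlib 3.10.9 did the rest. Spot error came from the 6 control probes whose 8 spots all exceeded the detection limit on both arrays, namely 2 spike controls and 4 probes whose contents are not stated. Alternatives changed the background treatment, scaling, source of values and detection limit, and none subtracted the intensities headed as background.

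The members, lists and alternatives were chosen with earlier results of these data known. The miRNAs named are the 3 members, 6 epithelial markers, the 2 nearest miRNAs per member, groups of neighbouring genes (290 of 291 miRNAs matched the RefSeq table) and markers of other cells. Of those other markers, 2 of 4 for fibroblasts or smooth muscle, 5 of 6 for striated muscle and 2 of 5 for neural cells were detected on both arrays. A planned list of miRNAs sharing a member's seed was not drawn up, since mature sequences were not used here.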

Additional observations from a re-analysis of the deposited data

How the results depend on the processing

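With the blank mean subtracted, the log2 differences (spheroid minus monolayer) were 0.87 for miR-183, 0.42 for miR-96, 0.40 for miR-182 and 0.42 for the cluster median. With the blank mean of each block subtracted, an alternative chosen after seeing the data, they were 0.23, 0.42, 0.43 and 0.42 in the same order. In the authors' table they were 0.96, 0.59, 0.66 and 0.66. With 2 choices changed together, the blank mean subtracted and the arrays scaled to the spike controls, they were 1.57, 1.20, 1.27 and 1.27, and 3 members were 2-fold or more apart instead of 0. An offset of 16 moved miR-183 to 0.25. Median scaling gave 0.59, 0.63 and 0.59 for miR-96, miR-182 and the median, 75th percentile scaling 0.56, 0.61 and 0.56, and no scaling 0.63, 0.68 and 0.63. Scaling to the median of the miRNAs detected on both arrays, also chosen after seeing the data, gave 0.053 for miR-183, then 0.54, 0.58 and 0.54, and scaling to their 75th percentile put miR-183 at -0.23. The remaining alternatives moved these 4 values by less than 1 spot SD (0.065). The median over the 178 miRNAs shifted from that of the main values by -0.12 with the blank mean subtracted, -0.11 with block blanks, 0.14 without scaling, 0.66 with the blank mean subtracted and the spike controls together, and -0.23 with the 75th percentile of detected miRNAs. With a detection limit at 5 blank SDs or at the 99th percentile of blanks (83.7 in the spheroids and 93.9 in the monolayer), 2 members in place of 3 were detected on both arrays, without miR-183. No paired analysis was possible because each culture had 1 sample, and for the same reason no replicate could be left out.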
